A study of Mus musculus with 2 samples.

Results

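The genes described here are 7 genes of thyrotropin and of the feedback by thyroid hormone in the pituitary: Tshb, Trhr, Tshr, Dio1, Dio2, Thra and Thrb. They were taken from the table by a list of gene symbols with no threshold on a measured value, though earlier results of these data were known when the list was made, and all 7 were found among its 47069 genes. Poly(A) RNA of primary mouse pituitary cells was sequenced in bulk from 2 samples, with 1 library for each stabilizing reagent. Both samples came from female C57BL/6 mice aged 10 to 12 weeks that were cycling at random. Pituitaries were digested with collagenase and pancreatin, and per the labels of both libraries a sample pooled 5 glands and held about 500000 to 700000 cells. The cells were placed directly in RNA-Best, a buffer made to keep RNA inside intact single cells, or in RNAlater, an RNA stabilizer that does not keep single cells and served as the reference. The labels name no hormone, drug or genetic change for either sample. Each library gives 1 value for pooled glands, so nothing can be said of single animals.

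Thyrotropin is a hormone of the anterior pituitary that is made by the thyrotrope, a minor endocrine cell type of the gland. It is a dimer of a beta subunit, encoded by Tshb, and the alpha subunit that it shares with the gonadotropins, encoded by Cga. Thyrotropin-releasing hormone (TRH) from the hypothalamus acts on its receptor Trhr to raise thyrotropin output, and thyrotropin acts on Tshr in the thyroid. Thyroid hormone then returns to the pituitary, where deiodinases turn thyroxine into the active triiodothyronine and the nuclear receptors encoded by Thra and Thrb lower Tshb transcription.

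The promoters of Tshb and Dio2 are shown because these are the hormone gene and the main activating deiodinase of the gland, and Tshb was the gene of the set with the highest ratio between the libraries among those above the filter. RefSeq promoter windows on GRCm38.p6 were found for 4 of the 7 genes, and the 250 bases before each RefSeq start were read 5′ to 3′ on the strand of the gene. Tshb is at chr3:102782715-102782964 on the minus strand and Dio2 at chr12:90739039-90739288 on the minus strand. The RefSeq start of Dio2 lies upstream of the start in the GENCODE span given below, at 90738438. Positions of motifs are counted from the RefSeq start. Capitals mark matches to TATAAA, the core of the TATA box, to AGATAA, a form of the site bound by GATA factors, and to TGACGTCA, the full cAMP response element, each searched on both strands.
Tshb: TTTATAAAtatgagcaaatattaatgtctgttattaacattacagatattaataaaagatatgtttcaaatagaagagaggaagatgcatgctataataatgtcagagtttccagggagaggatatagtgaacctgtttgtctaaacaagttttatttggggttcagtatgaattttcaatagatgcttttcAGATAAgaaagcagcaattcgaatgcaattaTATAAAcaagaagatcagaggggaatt
Dio2: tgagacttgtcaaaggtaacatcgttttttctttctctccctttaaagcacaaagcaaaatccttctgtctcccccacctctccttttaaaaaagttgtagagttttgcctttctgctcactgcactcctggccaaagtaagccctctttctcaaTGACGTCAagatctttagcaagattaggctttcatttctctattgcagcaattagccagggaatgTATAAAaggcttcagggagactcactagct
In Tshb, AGATAA lay at bases -58 to -53 before the start and TATAAA at -27 to -22. A further TATAAA at -248 to -243 overlapped its own reverse form at -250 to -245. In Dio2, TGACGTCA lay at -95 to -88 and TATAAA at -30 to -25. Of 32851 mouse promoter windows of the same length, 9.99% held AGATAA, 12.4% held TATAAA and 1.55% held TGACGTCA. The window of Dio1 and the window at the upstream start of Thrb held none of these motifs, and the second Thrb window held TATAAA at -167 to -162. A match is a string of letters and not a measured site, and no binding was assayed here.

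Gene counts summed to 53915047 for RNA-Best and to 44917492 for RNAlater. Counts were divided by these totals and multiplied by 1000000 to give CPM, and a count of 0 would allow up to 0.0556 CPM with RNA-Best and 0.0668 CPM with RNAlater (3 counts). With 1 library per group no test was possible, so every interval given here is a 95% interval of counting error only, and PCR copies of a molecule were counted as separate reads. The stabilizer, the cells of each sample and the preparation of each library cannot be told apart. A filter of a mean of 1 CPM or more left 16504 genes, whose median log2 ratio (RNA-Best over RNAlater, with 0.5 CPM added to each value) was -0.18. Scaling by TMM moved this median to -0.014, by DESeq2 size factors to -0.0030 and by totals without Prl and Gh to -0.055, so ratios near 0 have no fixed sign. In bulk libraries, fewer cells of a type and less RNA per cell cannot be told apart.

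Tshb, which encodes the subunit that makes thyrotropin specific, was higher in RNA-Best. Tshb (ENSMUSG00000027857.10, protein coding, chr3:102775465-102782718) had 2853 counts in RNA-Best, or 52.9 CPM (51.0 to 54.9), and 1421 counts in RNAlater, or 31.6 CPM (30.0 to 33.3). The intervals did not overlap, and the level was 1.67-fold higher in RNA-Best, a log2 ratio from the counts of 0.74 (0.65 to 0.83). With 0.5 CPM added the log2 ratio was 0.73, above that of 98.8% of the 16504 genes. This rank is a description and no test, and ratios in these libraries also went with transcript length.

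The partner subunit moved in the same direction by a similar amount. Cga was at 542 CPM with RNA-Best and 358 CPM with RNAlater, a log2 ratio from the counts of 0.60 (0.57 to 0.63). Its longest transcript has 0.707 kb, and genes with transcripts up to 1 kb had a median log2 ratio of 0.28. With 0.5 CPM added, Cga lay 0.31 above that median, with 83.6% of those genes below it. Of the counts of Tshb and Cga together, Tshb held 8.89% (exact binomial interval, 8.58 to 9.21) in RNA-Best and 8.12% (7.72 to 8.53) in RNAlater. The share of the beta subunit thus differed by less than 1 percentage point, with intervals that did not meet. Cga is also the alpha subunit of gonadotropes, so its level is not a measure of thyrotropes alone.

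Trhr, the receptor on thyrotropes through which TRH acts, was a weakly counted gene at nearly the same level in both libraries. Trhr (ENSMUSG00000038760.13, chr15:44196135-44235912) had 137 counts in RNA-Best, or 2.54 CPM (2.13 to 3.00), and 117 counts in RNAlater, or 2.60 CPM (2.15 to 3.12). The intervals overlapped for most of their width. The log2 ratio from the counts was -0.04, with an interval of -0.40 to 0.33 that leaves room for a difference of either sign. Set against Tshb, Trhr held 4.58% (3.86 to 5.39) of the summed counts of both genes in RNA-Best and 7.61% (6.33 to 9.05) in RNAlater. The share of Trhr was thus larger in RNAlater, with intervals that did not meet. Since the level of Trhr was nearly the same, this shift mainly restates the difference in Tshb. Bulk counts do not show which cells the Trhr reads came from, so the share is not a measure of thyrotropes alone.

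Tshr, the thyrotropin receptor, best known on the follicle cells of the thyroid, was barely counted. Tshr (ENSMUSG00000020963.14, chr12:91384563-91549808) had 16 counts in RNA-Best, or 0.297 CPM (0.170 to 0.482), and 48 counts in RNAlater, or 1.07 CPM (0.788 to 1.42). It was the lowest gene of the set per kilobase in RNA-Best, and the intervals of the libraries did not overlap. From the counts it was 3.60-fold lower in RNA-Best, a log2 ratio of -1.85 (-2.76 to -1.01). Its mean of 0.683 CPM was under the filter of 1 CPM, and with 0.5 CPM added the log2 ratio was -0.98, just inside the 2-fold limit. Markers of thyroid follicles were also near the floor: their summed level over 5 genes was 1.65 CPM with RNA-Best and 2.004 CPM with RNAlater, and 0 of 5 reached a mean of 1 CPM. Tg had 22 and 8 counts, and Pax8 was at 0 in both libraries. The 4 adipocyte markers summed to 0.0371 and 0.0891 CPM, with Lep and Cidec at 0 in both.

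**Figure D1:**
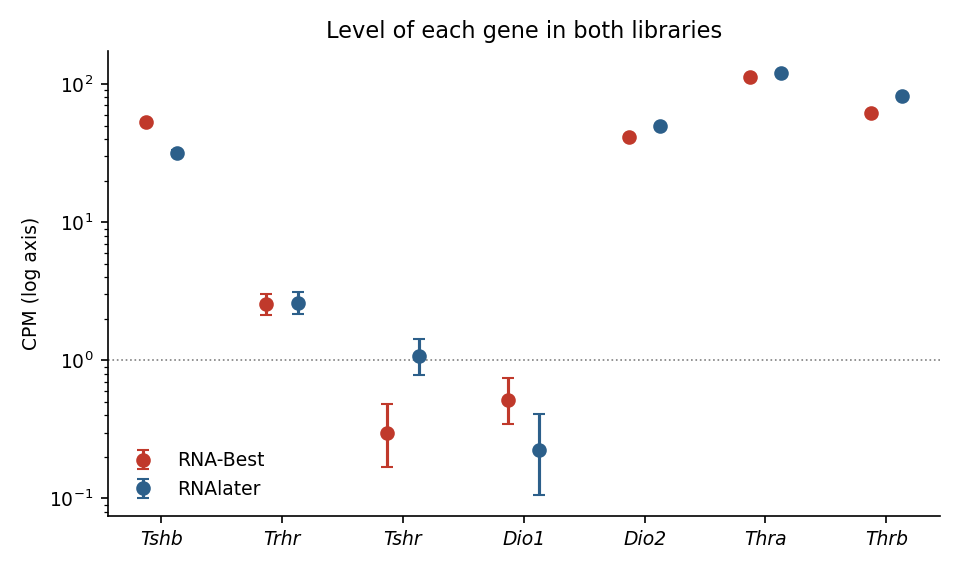
Level of each of the 7 genes as CPM on a log axis, in the RNA-Best library (red) and the RNAlater library (blue). Points are the single library of each group, bars are 95% Poisson intervals of counting error (smaller than the point for abundant genes), and the dotted line is 1 CPM. The intervals of Tshb lie apart with RNA-Best higher, those of Tshr, Dio2, Thra and Thrb lie apart with RNAlater higher, and those of Trhr and Dio1 overlap.

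Of the deiodinases, Dio2 was by far the most counted. Dio2 encodes the type 2 enzyme, which makes triiodothyronine from thyroxine inside the cell and is the activating enzyme known for pituitary feedback. Dio2 (ENSMUSG00000007682.5, chr12:90724552-90738438) had 2213 counts in RNA-Best, or 41.0 CPM (39.4 to 42.8), and 2231 counts in RNAlater, or 49.7 CPM (47.6 to 51.8). By library totals it stood lower in RNA-Best beyond counting error, with a log2 ratio from the counts of -0.28 (-0.36 to -0.19), or 1.21-fold. With 0.5 CPM added the log2 ratio was -0.27. It shrank to -0.10 under TMM, -0.089 under DESeq2 size factors and -0.15 with totals that leave out Prl and Gh. The size of the Dio2 difference thus depends on the scaling. The direction was the reverse of Tshb: of the counts of Tshb and Dio2 together, Tshb held 56.3% (54.9 to 57.7) in RNA-Best and 38.9% (37.3 to 40.5) in RNAlater. The single annotated Dio2 transcript shares 100 of its exon bases (1.72%) with Gm26512, a long noncoding RNA on the opposite strand that had 246 and 206 counts. Whether the authors' counting used strand is not given in the sources used here, so reads in the shared bases could belong to either gene.

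Dio1 encodes the type 1 enzyme, which is best known from liver, kidney and thyroid. Dio1 (ENSMUSG00000034785.14, chr4:107291465-107307169) had 28 counts in RNA-Best, or 0.519 CPM (0.345 to 0.751), and 10 counts in RNAlater, or 0.223 CPM (0.107 to 0.409). These intervals overlapped, yet the interval of the log2 ratio from the counts, 1.22 (0.14 to 2.43), lay above 0. With a mean of 0.371 CPM it did not reach the filter, and 10 counts fix neither its level nor its ratio closely. Dio3, whose enzyme inactivates both hormones, had 12 and 11 counts. Dio2 thus held 98.2% (97.6 to 98.7) of the counts of the 3 deiodinase genes in RNA-Best and 99.1% (98.6 to 99.4) in RNAlater.

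Thra and Thrb encode the nuclear receptors that carry the hormone signal to the genome, and a form of Thrb is the receptor best known for feedback on Tshb. Thra (ENSMUSG00000058756.13, chr11:98740638-98769006) had 6027 counts in RNA-Best, or 111.8 CPM (109 to 115), and 5357 counts in RNAlater, or 119 CPM (116 to 122.5). It differed little: the log2 ratio from the counts was -0.09 (-0.15 to -0.04), and with 0.5 CPM added it turned from -0.09 to 0.079 under TMM, 0.091 under DESeq2 size factors and 0.034 with totals that leave out Prl and Gh. Thrb (ENSMUSG00000021779.16, chr14:17660261-18038090) had 3335 counts in RNA-Best, or 61.9 CPM (59.8 to 64.0), and 3709 counts in RNAlater, or 82.6 CPM (79.9 to 85.3). Thrb was 1.33-fold lower in RNA-Best, with a log2 ratio from the counts of -0.42 (-0.48 to -0.35) and intervals that did not overlap. Within the pair, Thrb held 35.6% (34.7 to 36.6) of the receptor counts in RNA-Best and 40.9% (39.9 to 41.9) in RNAlater. The table gives 1 value per gene, so the receptor isoforms, which differ in hormone binding, were not resolved among the 9 annotated transcripts of Thra and the 7 of Thrb.

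The end of Thra overlaps Nr1d1, which encodes a nuclear receptor of the circadian clock and lies on the opposite strand. The shared exon bases are 263, or 5.70% of those of Thra. Nr1d1 stood at 57.8 CPM with RNA-Best and 121 CPM with RNAlater, a log2 ratio of -1.06 with 0.5 CPM added, so it differed between the libraries far more than Thra did. Of the counts of Thra and Nr1d1 together, Thra held 65.9% (64.9 to 66.9) in RNA-Best and 49.7% (48.7 to 50.6) in RNAlater. Both Thra values were whole numbers, whereas the RNAlater count of Nr1d1 was 5431.5. If strand was not used, reads of the overlap cannot be assigned to either gene, and the part of this in the Thra level was not tested.

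**Figure D2:**
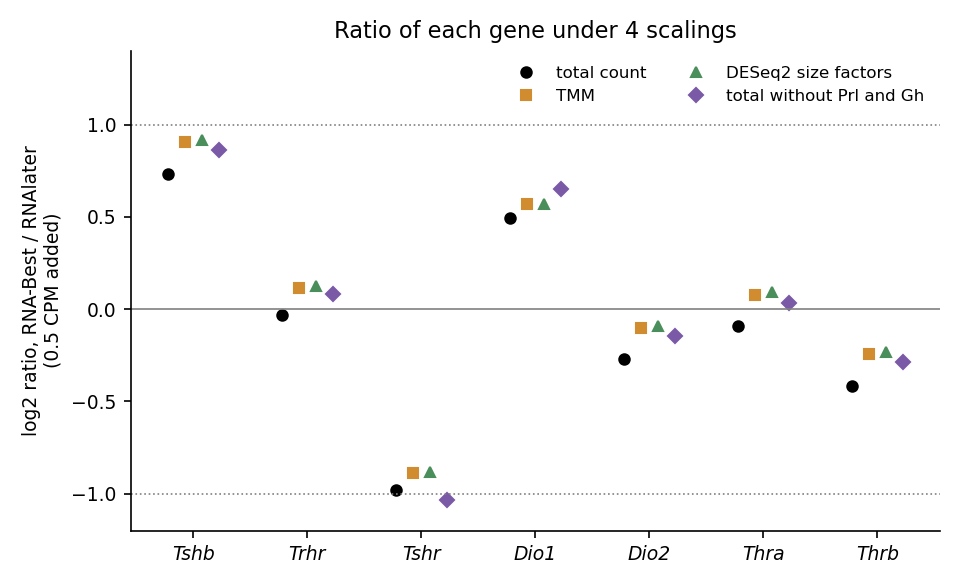
Log2 ratio of RNA-Best to RNAlater for each of the 7 genes, with 0.5 CPM added, under 4 ways of scaling the libraries (total count, the same without Prl and Gh, TMM, and the size factors of DESeq2). Points are single values with no replicate, the solid line is 0 and dotted lines are the 2-fold limits. Tshb and Dio1 stay above 0 and Dio2, Thrb and Tshr below 0 under all 4, while Trhr and Thra cross 0. Tshr lies past the 2-fold limit under 1 of the 4.

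Read together, 5 of the 7 genes reached a mean of 1 CPM (Tshb, Trhr, Dio2, Thra and Thrb), and Dio1 and Tshr did not. None of the 5 was 2-fold different in either direction, beside 5.27% of the 16504 genes in either direction, 0.273% past 2-fold with the higher level in RNA-Best and 4.99% past it with the lower. Of the 5, 1 was higher in RNA-Best (Tshb) and 4 lower, beside 33.0% of the 16504 genes that were higher. Their median log2 ratio was -0.09, which is 0.08 above the median of all genes. Under TMM, DESeq2 size factors and totals without Prl and Gh, 3 of the 5 were higher, beside 48.7%, 49.7% and 44.8% of all genes.

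Levels of different genes were compared per kilobase of the longest annotated transcript. In RNA-Best the order was Thra at 45.6 CPM per kb, Tshb at 12.0, Thrb at 9.98, Dio2 at 7.06, Trhr at 0.704, Dio1 at 0.307 and Tshr at 0.0688 CPM per kb, and the counting intervals of neighbours in this order did not overlap. In RNAlater the order was Thra at 48.6 CPM per kb, Thrb at 13.3, Dio2 at 8.54, Tshb at 7.20, Trhr at 0.722, Tshr at 0.248 and Dio1 at 0.132 CPM per kb, and among neighbours Tshr and Dio1 were not apart. Tshb thus stood above Thrb and Dio2 in RNA-Best and below both in RNAlater. The place of Tshb depends on which transcript is counted as expressed: its longest model, of 4396 bases, is a retained-intron transcript, and its longest protein-coding transcript has 605 bases. Per kilobase of the coding transcript Tshb was at 87.5 CPM per kb (84.3 to 90.7) in RNA-Best, above Thra, and at 52.3 (49.6 to 55.1) in RNAlater, where it overlapped Thra at 48.6 (47.3 to 50.0). Read against the longest transcripts of the 16504 genes, Thra lay above 91.3% of them in RNA-Best and 92.2% in RNAlater, and Trhr above 9.49% and 7.05%.

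Length also went with the ratio itself. Over the genes above the filter with an annotated length, the median log2 ratio, with 0.5 CPM added, was 0.28 for transcripts up to 1 kb, 0.07 from 1 to 2 kb, -0.09 from 2 to 3 kb, -0.22 from 3 to 4 kb, -0.40 from 4 to 6 kb, -0.65 from 6 to 10 kb and -0.90 above 10 kb. Longer genes thus had lower ratios, and the genes of the set span from 1.69 kb (Dio1) to 6.20 kb (Thrb). Measured from the median of its own class, Trhr was 0.19 higher, Dio2 0.13 higher and Thrb 0.24 higher, while Thra was at -0.0028. Dio2 and Thrb were therefore lower in RNA-Best in CPM but above the median of their length class. Of the genes in their classes, 65.0% lay below Dio2 and 72.5% below Thrb. The length of Thrb is near the lower edge of its class, and its ratio of -0.41 was close to the median from 4 to 6 kb. Tshb was 1.13 above the median of its class with the length of 4396 bases, and 0.45 above that of the 2089 genes up to 1 kb with the coding length of 605 bases, where 92.3% of the genes lay below it. Dio1 was 0.43 above its class median and Tshr 0.58 below it, both under the filter. Of the 5 genes above the filter, 4 lay above their class median.

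**Figure D3:**
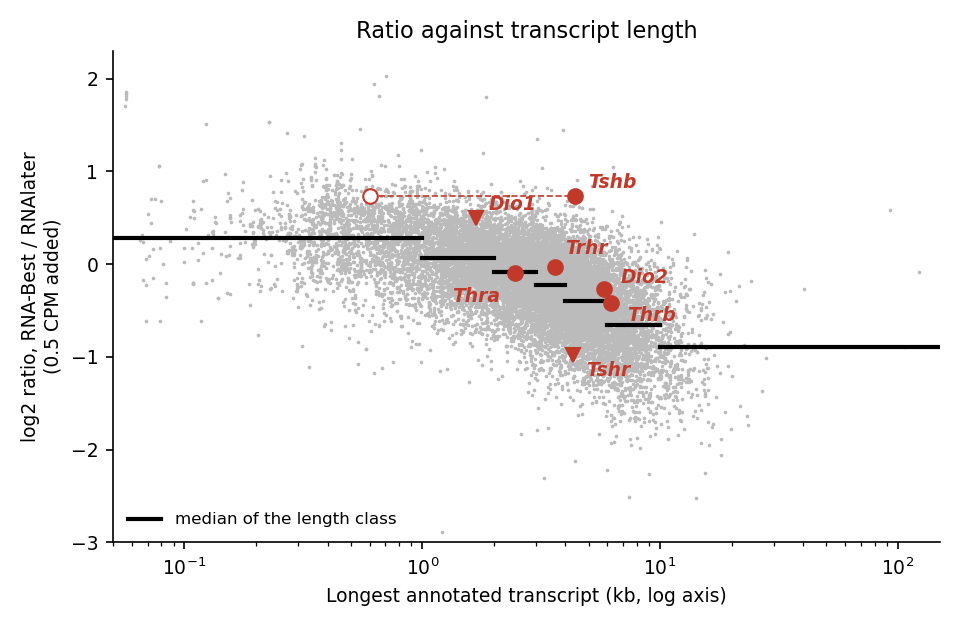
Log2 ratio of RNA-Best to RNAlater (0.5 CPM added) against the longest annotated transcript in kb, on a log axis. Grey points are genes whose mean reached 1 CPM, black bars the medians of 7 length classes, red circles the genes of the set above the filter and red triangles the pair below it. The open circle is Tshb at its coding length, joined to its value at the retained-intron length. Class medians run from 0.28 for the shortest to -0.90 for the longest, and Tshb lies above the bar at either length.

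The wider pathway was followed in 60 further genes on 7 lists, of which 52 had a mean of at least 1 CPM. Of these, 10 were higher in RNA-Best and 42 lower, beside 33.0% of all genes that were higher. None was 2-fold higher, beside 0.273% of all genes, and 3 were 2-fold lower, Itpr1 and Ncoa3 among them, beside 4.99%. Under TMM and DESeq2 size factors 2 were 2-fold lower, beside 2.63% and 2.54% of all genes. The median log2 ratio of the 52 was -0.26, against -0.18 for all genes, and 31 of the 52 lay below the median of their length class. All log2 ratios of these lists are with 0.5 CPM added.

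The transcription factors of the thyrotrope differed among themselves. On the list of the partner subunit and thyrotrope regulators, 2 of 11 genes were higher, 9 lower and none 2-fold different, with a median of -0.18. Pou1f1, the pituitary factor needed for thyrotropes, somatotropes and lactotropes, was at 93.6 CPM with RNA-Best and 87.8 CPM with RNAlater, a log2 ratio of 0.09. Gata2, which acts with Pou1f1 at the Tshb promoter, was lowest on the list at 12.4 CPM with RNA-Best and 20.6 CPM with RNAlater, a log2 ratio of -0.71. Gata2 held 11.7% (10.8 to 12.5) of the counts of the pair in RNA-Best and 19.0% (17.9 to 20.1) in RNAlater. Tshb was higher and Gata2 lower in the same library, and Tshb held 36.1% (35.0 to 37.2) of the counts of Tshb and Pou1f1 in RNA-Best and 26.5% (25.3 to 27.7) in RNAlater. Bulk counts do not show which cells the Gata2 and Pou1f1 reads came from, so these values are not measures of thyrotropes alone. The thyrotrope markers Tshb, Cga, Pou1f1, Gata2 and Trhr were all present above 1 CPM in both libraries.

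The list of TRH and its receptor pathway had a median of -0.75 over 6 genes above the filter, of which 1 was higher and 5 lower, and a median transcript length of 6.42 kb. Itpr1, the calcium channel opened by inositol trisphosphate downstream of Trhr, was at 39.8 CPM with RNA-Best and 109 CPM with RNAlater, a log2 ratio of -1.44. Its longest transcript has 9.87 kb, and its ratio was 0.79 below the median of its length class, with 4.27% of that class lower. Gna11, a G protein subunit that couples the receptor to phospholipase C, had a log2 ratio of 0.03 at 79.8 and 77.9 CPM. It was the most abundant gene of the list by the mean CPM of both libraries, though Itpr1 was higher in RNAlater. Trh itself had 13 and 17 counts, and Trhr2 was at 0 in both. Of the other ligands of the thyrotropin receptor, Gpha2, the alpha subunit of thyrostimulin, was at 2.06 CPM with RNA-Best and 1.31 CPM with RNAlater, while its partner Gphb5 was at 0 in both.

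The next lists hold genes that carry thyroid hormone into cells, bind it, or make and turn over the deiodinases. On the list of thyroid hormone transport and binding, 1 of 7 genes was higher and 6 lower, with a median of -0.38. Crym, a cytosolic protein that binds triiodothyronine, was highest with a log2 ratio of 0.18 at 4.06 and 3.52 CPM, and Slc3a2, the heavy chain of amino acid transporters that also carry thyroid hormone, was most abundant with -0.38 at 163 and 212 CPM. On the list of deiodination and selenoprotein synthesis, 2 of 10 genes were higher and 8 lower, with a median of -0.22. Its ends were Trnau1ap at 0.14, a factor of selenocysteine insertion, and March6 at -0.58, a ubiquitin ligase that acts on the type 2 deiodinase. Wsb1, another ligase adaptor for that enzyme, was the most abundant at 171 CPM with RNA-Best and 198 CPM with RNAlater, a log2 ratio of -0.21, and Iyd was at 0 in both.

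Of the 13 partners and coregulators of the thyroid hormone receptors, 2 were past 2-fold, both lower in RNA-Best. Ncoa3, a coactivator of the p160 family, was at 16.8 CPM with RNA-Best and 37.6 CPM with RNAlater, a log2 ratio of -1.14. The list had 2 genes higher and 11 lower, a median of -0.65 and a median transcript length of 7.33 kb, and Hdac3, the deacetylase of the corepressor complex, was its highest gene at 0.07. Among the retinoid X receptors that pair with Thra and Thrb, Rxrg held 31.2% (29.9 to 32.5) of the counts of the 3 genes in RNA-Best and 29.6% (28.3 to 30.9) in RNAlater. Of the genes induced by thyroid hormone, 1 of 4 above the filter was higher and 3 lower, with a median of -0.40. Klf9, a transcription factor directly induced by the hormone, was lowest at -0.61, at 46.3 CPM with RNA-Best and 70.7 CPM with RNAlater, and Thrsp, a lipogenic gene, was highest at 0.12.

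Markers of the other cells of the gland moved between the libraries beside these values. Of the 16504 genes above the filter, 33.0% were higher in RNA-Best. The summed level of 6 posterior lobe markers was 249 CPM with RNA-Best and 427 CPM with RNAlater, and 0 of 6 were higher, with Gja1 the most abundant at 156 and 253 CPM and Rax the least at 1.52 and 2.004 CPM. The 9 stem and folliculostellate markers summed to 351 and 594 CPM with 0 higher, from Cdh1 at 102 and 222 CPM to S100b at 2.58 and 3.74 CPM. The 8 endothelial markers summed to 396 and 722 CPM with 1 higher, from Plvap at 144 and 246 CPM to Esam at 24.9 and 26.7 CPM. The 8 pericyte and fibroblast markers summed to 522 and 679 CPM with 0 higher, from Col1a2 at 376 and 425 CPM to Pdgfra at 5.27 and 17.2 CPM. The 8 macrophage markers summed to 196 and 185 CPM with 4 higher, from C1qa at 58.7 and 39.5 CPM to Cx3cr1 at 4.49 and 8.30 CPM. The summed level of each of these lists except the macrophage list was thus lower in RNA-Best, as were Tshr, Thrb and Dio2. The macrophage list also had the shortest median transcript of these lists, 1.22 kb. Measured from the medians of length classes, the median posterior lobe marker was at -0.34 and the median stem and folliculostellate marker at -0.52. The medians were -0.70 for endothelial, -0.56 for pericyte and fibroblast and 0.07 for macrophage markers. On that measure Tshr also lay below its class, but Thrb and Dio2 lay above theirs, by 0.24 and 0.13. The part of other cells in the ratios of Tshr, Thrb and Dio2 was not tested.

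**Figure D4:**
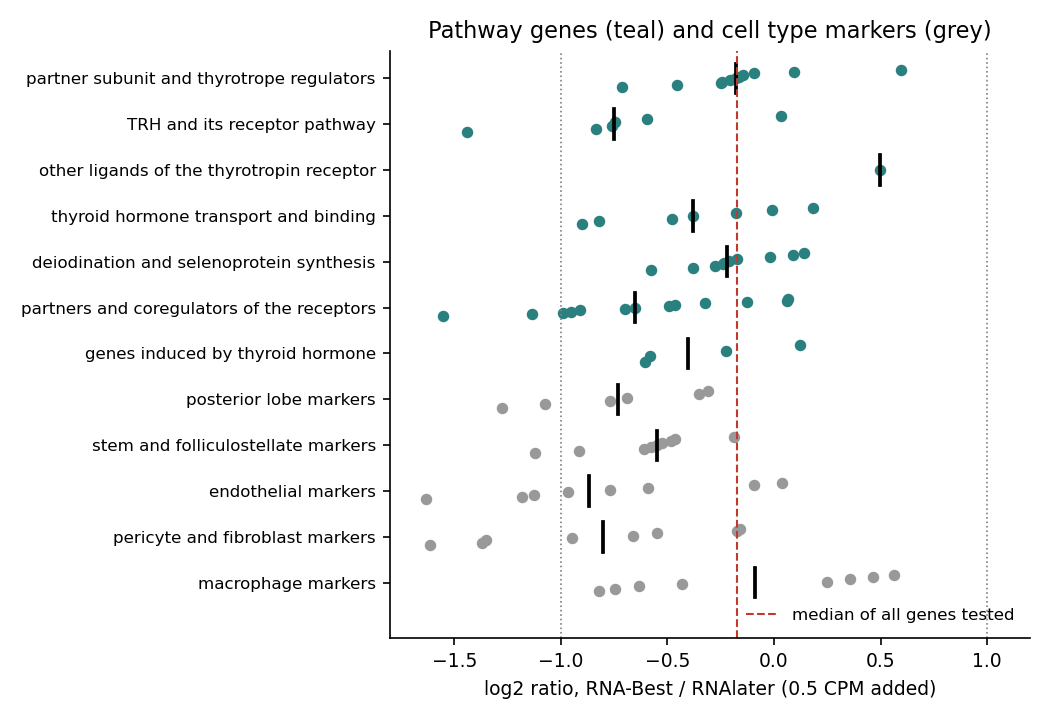
Log2 ratio of RNA-Best to RNAlater (0.5 CPM added) of each pathway gene (teal) and each cell type marker (grey) with a mean of at least 1 CPM, 1 row per list. Black ticks are list medians, the dashed red line is the median of all 16504 genes at -0.18 and dotted lines are the 2-fold limits. The list medians run from -0.87 for endothelial markers to 0.50 for the single thyrotropin receptor ligand above the filter.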

How the data were processed

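Poly(A) RNA of 2 samples of pituitary cells was sequenced from Illumina TruSeq mRNA libraries, and samples were grouped by the stabilizer in the labels. The authors deposited 1 table of estimated counts per gene that were not normalized. Of the values above 0, 64.6% in RNA-Best and 65.1% in RNAlater were whole numbers, among them both values of all 7 genes of the set. The submitters' processing notes name STAR 2.5.1b, featureCounts 1.5.0-p1 and mm10. The option that divided reads and the strand setting are not given in the sources used here. The design had assumed whole counts, so estimated counts were rounded for intervals and scaling factors.

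Names, places and lengths came from GENCODE M21, in which 46488 identifiers (98.8%) matched. Counts were scaled to CPM by library totals. Log2 ratios had 0.5 CPM added, which understates those of weakly counted genes, and a mean of 1 CPM or more was required. Intervals of 95% were exact Poisson for levels, exact conditional binomial for ratios and exact binomial for shares. edgeR 4.0.16 gave TMM factors and DESeq2 1.42.0 size factors, in R 4.3.3. Other steps used Python 3.11.15, numpy 2.4.6, scipy 1.17.1, pandas 2.3.3 and matplotlib 3.10.9, and were tested on simulated data. The members and lists were chosen with earlier results of these data known. Named were the 7 genes and, from each pathway list, both ends, the most abundant gene, genes past 2-fold and genes at 0 in both libraries, with Nr1d1 for its overlap and the most and least abundant gene of each marker list. Abundance in this rule was the mean CPM of both libraries. Some genes that the rule would name are not reported here. Gm26512, Trh, Dio3, Rxrg and Tg are not covered by the rule and were picked with their values known, as was Pou1f1 as the partner of Gata2.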

Additional observations from a re-analysis of the deposited data

How the results depend on the processing

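No paired analysis was possible because each stabilizer had 1 library. The signs of Tshb and Dio1 (higher in RNA-Best) and Tshr (lower) held under every alternative run. Their log2 ratios ran from 0.45 to 1.13, from 0.31 to 0.94 and from -1.56 to -0.58. The number of genes of the set higher in RNA-Best was 1 and became 3 under TMM, DESeq2 size factors and totals without Prl and Gh, and 2 without a filter at each added value or with RNA-Best thinned to the depth of RNAlater. Their median of -0.09 became 0.079, 0.091 and 0.034 under the 3 scalings, as did Thra, and -0.18 at a mean of at least 10 CPM. Dio2 and Thrb turned to 0.13 and 0.24 against their length class. For both genes the longest coding transcript is also the longest transcript, so the coding length gave no further check. Under the filter and so not counted, Tshr was past 2-fold in planned runs without Prl and Gh (-1.04), with 0.1 CPM added (-1.56) and with thinning (-1.03). Inside the limit were its values under TMM (-0.89), under DESeq2 size factors (-0.88) and with 1 CPM added (-0.67). In alternatives added after seeing the data, 1 gene (Tshr) was counted past 2-fold without a filter and with 0.1 CPM added. In another such alternative, the order per kilobase changed at 6 places with the longest coding transcript. It changed at 2 places with the median transcript. Pathway genes at least 2-fold different numbered 3, and 2 under TMM or DESeq2 size factors, all lower in RNA-Best. Of all genes, 4.99% were 2-fold lower, and 2.63% and 2.54% under those scalings. The number of pathway genes higher in RNA-Best, 10 of 52, became 15, 18 and 15 under the 3 scalings, the last of 53 genes. Beside these, the share of all genes that were higher rose from 33.0% to 48.7%, 49.7% and 44.8%. Each of these counts, the median and the order was checked under the alternatives that applied to it. Of these checks, 22 stayed within the set limits, 11 moved past them and 3 reversed in sign. With 1 library per group, no spread between samples could be measured, and the 16 counts of Tshr and 10 of Dio1 limit what their ratios can show.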
